A study of Mus musculus with 12 samples.

Results

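The nuclear genes for the subunits of mitochondrial oxidative phosphorylation were followed in 12 RNA-seq libraries of C18-4 cells, an immortalized mouse spermatogonial line. Members were chosen by gene symbol, from the Nduf, Sdh, Uqcr, Cox4 to Cox8 and Atp5 names, leaving out the Ndufaf assembly factors. This gave 86 of the 17576 genes of the table: 39 of complex I, 4 of complex II, 8 of complex III, 18 of complex IV and 17 of complex V. Ndufa4 and Ndufa4l2 were counted with complex IV, where their proteins are found. Cox7a2l and Atp5s are counted by name with complexes IV and V, although their proteins are associated factors rather than subunits. Cyc1, a subunit of complex III, and Usmg5, a small subunit of complex V, fall outside the naming rule and are given separately. The subunits encoded by mitochondrial DNA were not analysed here.

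The 4 groups held 3 libraries each. C18_3NC cells carried the lentiviral vector LV3 with a control shRNA, and C18_5251KD cells carried LV3 with shRNAs against the long non-coding RNA lncRNA5251. C18_5NC cells carried the vector LV5 without an insert, and C18_5251OV cells carried LV5 with lncRNA5251. The strain is given in the labels as IRC mouse. C18_5251KD was compared with C18_3NC, C18_5251OV with C18_5NC, and C18_5NC with C18_3NC. In the last comparison vector and culture go with the group, so their effects cannot be told apart. No source used here says whether replicates were separate cultures, so p-values measure the spread between these libraries, which may be technical. A heading of the study's methods names another long non-coding RNA for the C18-4 experiment, and the labels were followed here. The level of lncRNA5251 itself was not analysed here.

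The respiratory chain passes electrons from NADH, at complex I, and from succinate, at complex II, through complex III to oxygen at complex IV. Complexes I, III and IV pump protons across the inner mitochondrial membrane, and complex V, the ATP synthase, uses the return flow to make ATP. Except for complex II, each complex joins nuclear-encoded subunits with a few encoded by mitochondrial DNA. In the testis, spermatogonia rely largely on glycolysis, and respiration gains weight later in germ cell development.

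Values are RPKM, read numbers scaled to gene length and to the mapped reads of the library. A difference is the log2 difference of (RPKM + 1), given ± its standard error (SE) from 1 limma fit over all 12 libraries. It understates the change of genes near 0. "Rose" and "fell" are used at an adjusted p of at most 0.05, by Benjamini-Hochberg over the 11435 genes that reached 1 RPKM in 3 or more libraries. Of the 86 members, 80 passed this filter. The 6 that did not were Ndufb4b, Ndufa11b, Cox4i2, Cox6b2, Cox7b2 and Ndufa4l2.

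Before the members are compared, 3 facts of the libraries matter. The value of a single read, read from the lowest steps of low genes, put the depth of the libraries between 0.994 and 1.01 times that of C18_3NC replicate 1. Spearman correlations within groups ran from 0.993 to 0.998. C18_5251OV replicate 3 stood apart from the other C18_5251OV libraries in the summed RPKM of the members. The main overexpression counts, and most of the members described there, are therefore also given without it. Defining spermatogonial genes were at or near 0: Gfra1 reached at most 0.17 RPKM, and Ret, Nanos2 and Kit were at 0 in every library. Of the listed germ cell markers, Uchl1 was the one with a high level, with a median of 85.7 RPKM. Wt1, a Sertoli cell gene, had a median of 51.3 RPKM, while Sox9 reached at most 0.03. The summed RPKM of the 10 markers of peritubular and mesenchymal cells ran from 299 to 308 in C18_3NC, 395 to 478 in C18_5251KD, 523 to 530 in C18_5NC and 534 to 577 in C18_5251OV. Col1a1 (249 to 437 RPKM over the libraries) and Dcn (20.9 to 115) made up nearly all of it, while Myh11, Col1a2, Thy1, Pdgfra and Pdgfrb reached at most 1.62. That of the 15 germ cell markers in the table moved the other way in knockdown, from 82.6 to 91.3 in C18_3NC to 63.6 to 71.9 in C18_5251KD, and was 93.7 to 97.6 in C18_5NC and 110 to 127 in C18_5251OV. Uchl1 (60.1 to 123 RPKM over the libraries) made up nearly all of this sum. The macrophage markers summed to 4.14 to 6.03 RPKM in C18_3NC, 2.80 to 3.56 in C18_5251KD, 2.31 to 2.57 in C18_5NC and 1.5 to 2.89 in C18_5251OV. Cd68 (1.26 to 5.61 RPKM over the libraries) made up most of it, while Ptprc, Csf1r and Itgam reached at most 0.07 and Lyz2 at most 0.63. The sums of the Sertoli cell markers lay between 61.1 and 69.0 RPKM in all libraries, and those of the Leydig cell markers were at most 2.43. The part of these markers in the results was not tested, and in bulk libraries a change in the mix of cells and a change within cells cannot be told apart.

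The members were abundant transcripts. In all, 59 of the 80 tested members had a mean over 100 RPKM, and their median was 159 RPKM against 14.0 for all genes tested. Atp5b, the catalytic beta subunit of ATP synthase, had the highest mean over the 12 libraries, 783 RPKM, with 721 to 890 RPKM over the 12 libraries. Cox8a, a small subunit of complex IV, followed at 752 RPKM, with 664 to 894, so the ranges of both genes overlapped. The order was not the same in every group: in C18_5251KD, Atp5h of complex V averaged 869 RPKM, Cox8a 844 and Atp5b 739. Over all libraries the highest members of the other complexes were Uqcrb of complex III at 393 RPKM, Ndufa12 of complex I at 299 RPKM and Sdhc of complex II at 105 RPKM. In C18_5251KD, Ndufb9 (312 RPKM) and Sdhd (122 RPKM) averaged more than Ndufa12 (309.5 RPKM) and Sdhc (116 RPKM). The median over tested members was 377 RPKM in complex IV, 320 in complex V, 137 in complex III, 125 in complex I and 88.2 in complex II.

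Knockdown was the comparison with the most changed members. The summed RPKM of the 86 members was 17260, 17340 and 17500 in C18_3NC and 19600, 20300 and 20180 in C18_5251KD. Every C18_5251KD library lay above every C18_3NC library, and the mean was 15.3% higher. The members' share of all RPKM was 3.11% to 3.16% in C18_3NC and 3.56% to 3.63% in C18_5251KD. Of the 80 tested members, 44 (55%) rose and 2 (2.5%) fell in C18_5251KD, while over all 11435 genes 31.9% rose and 23.5% fell. The falls numbered 1 without C18_3NC replicate 1, 3 without C18_5251KD replicate 2, and 4 without C18_5251OV replicate 1 or 3, which share the fit. Without Cox7a2l and Atp5s, 42 rose and 2 fell. The median difference was 0.20 over the members and 0.04 over all genes. The rises were small, from 0.11 to 0.56, with a median of 1.23-fold among the members that rose. In 51 members all 3 knockdown values lay above all 3 control values, and in 4 all lay below. This was not counted over all genes, so these counts cannot be set against a background.

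**Figure D1:**
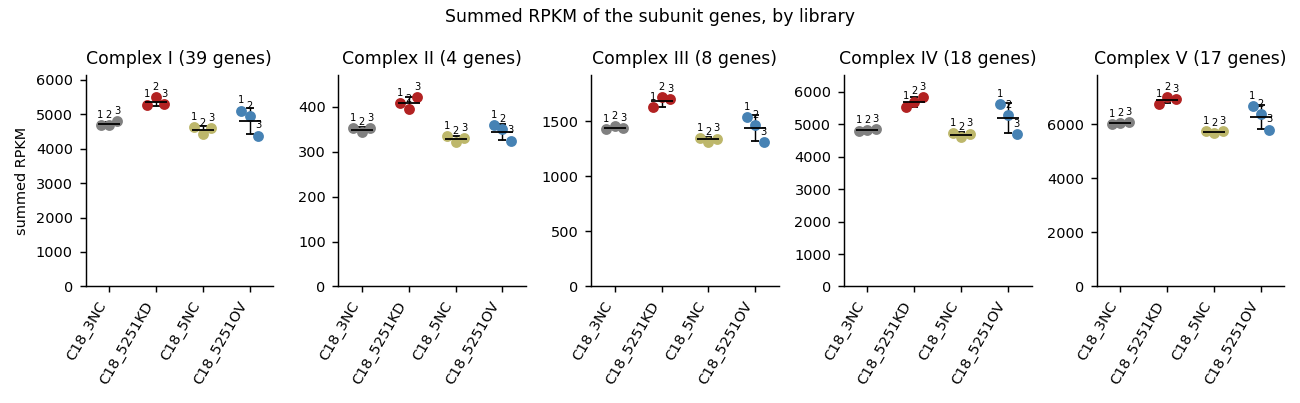
Summed RPKM of the member genes of each complex (vertical axis, from 0) in each library (points, numbered by replicate), with the group mean and SD over 3 libraries. The C18_5251KD libraries lie above the C18_3NC libraries in all 5 complexes, while C18_5251OV replicate 3 lies near the C18_5NC libraries.

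Members of all 5 complexes rose, against the 31.9% of all genes. In complex I, 15 of 37 tested members (40.5%) rose, not far above that share, and 1 fell. In complex II it was 3 of 4, in complex III 6 of 8 (75%) and in complex IV 9 of 14 (64.3%), with no member falling. In complex V, 11 of 17 (64.7%) rose and 1 fell. The median difference was 0.11 in complex I, 0.24 in complex II, 0.21 in complex III, 0.28 in complex IV and 0.21 in complex V. Without Cox7a2l and Atp5s it was 0.27 in complex IV and 0.18 in complex V. With median-ratio scaling it was 0.07 in complex I. Corrected for gene length and GC content, the medians were 0.08, 0.20, 0.14, 0.16 and 0.14 in complexes I to V, highest in complex II. With quantile normalization the median of complex V was 0.13, and with C18_5NC as the control that of complex I was 0.23. The summed RPKM was 13.4% higher in complex I and 18% higher in complex IV, the ends of the range. No difference between complexes was tested.

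In complex I, 7 of the 16 members of the matrix arm (43.8%), which holds the flavin and the iron-sulfur clusters, rose in C18_5251KD. In the membrane arm, which pumps protons, it was 8 of 20 (40%), so both shares were not far above the 31.9% of all genes. Ndufa6, a subunit where the arms meet, had 143, 141 and 150 RPKM in C18_3NC and 193, 214 and 188 in C18_5251KD. The groups did not overlap, and it rose by 0.45 ± 0.06 (adjusted p = 1.1e-05). Ndufs4, an accessory subunit of the matrix arm whose loss causes Leigh-like disease in mice, had 46.4, 44.9 and 45.3 RPKM in C18_3NC and 55.7, 61.0 and 71.8 in C18_5251KD. All 3 knockdown libraries were higher, replicate 3 most, and the difference was 0.45 ± 0.08 (adjusted p = 0.00028). Ndufv3, an accessory subunit near the NADH site, rose by 0.42. Ndufs1, Ndufs7, Ndufs8, Ndufv1 and Ndufv2, which are core subunits, did not pass, with differences from −0.14 to 0.09. The core subunit Ndufs3 rose by 0.24.

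Ndufb4c was the complex I member that fell. It is a close copy of Ndufb4, so reads may have been shared between them. Ndufb4c had 34.9, 24.8 and 28.3 RPKM in C18_3NC and 21.0, 22.8 and 24.1 in C18_5251KD. The groups did not overlap, but the control values were spread widely, and the difference was −0.35 ± 0.12 (adjusted p = 0.022). Without C18_3NC replicate 1 it was −0.22 (adjusted p = 0.13), and without C18_5251KD replicate 1 it was −0.30 (adjusted p = 0.085). With C18_5NC as the control it was −0.13 (adjusted p = 0.34). Ndufb4 itself rose by 0.31.

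Complex II is succinate dehydrogenase, a member of both the citric acid cycle and the chain. Sdha, its flavoprotein, had 75.3, 72.6 and 72.5 RPKM in C18_3NC and 96.2, 90.9 and 94.0 in C18_5251KD. The groups were far apart, and Sdha rose by 0.35 ± 0.04 (adjusted p = 8.9e-06). The membrane anchors Sdhc and Sdhd rose by 0.20 and 0.27, while the iron-sulfur subunit Sdhb differed by 0.04 (adjusted p = 0.57). Sdhc lost its call without C18_3NC replicate 1 (adjusted p = 0.058) and without C18_5251KD replicate 3 (adjusted p = 0.060).

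In complex III, Uqcrb, a subunit near the quinone site, had 371, 392 and 353 RPKM in C18_3NC and 427, 469 and 505 in C18_5251KD. It rose by 0.33 ± 0.06 (adjusted p = 0.00046), with no overlap. Uqcrh, the acidic hinge protein that helps cytochrome c dock, had 237, 240 and 237 RPKM in C18_3NC and 282, 300 and 305 in C18_5251KD. It rose by 0.31 ± 0.06 (adjusted p = 0.00029), and again the groups were apart. The core protein Uqcrc2 and the Rieske iron-sulfur protein Uqcrfs1 rose by 0.21 each. Uqcrc1, the other core protein, rose by 0.16 but lost the call without any single C18_3NC library and without C18_5251KD replicates 1 or 2, with adjusted p from 0.078 to 0.19, and with median-ratio scaling (adjusted p = 0.12) or C18_5NC as the control (0.01, adjusted p = 0.91). The small subunits Uqcr11 and Uqcrq each differed by −0.10 and did not pass. Cyc1, the cytochrome c1 gene outside the naming rule, had a difference of −0.13 (adjusted p = 0.12).

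In complex IV, Cox6c, a small membrane subunit, had 447, 475 and 441 RPKM in C18_3NC and 607, 641 and 666 in C18_5251KD. Every knockdown library was higher by over 100 RPKM, and Cox6c rose by 0.49 ± 0.06 (adjusted p = 1.3e-05). Cox7a2, the widely expressed form of subunit 7a, had 183, 177 and 184 RPKM in C18_3NC and 243, 270 and 243 in C18_5251KD. Its groups did not overlap, and it rose by 0.47 ± 0.06 (adjusted p = 9.5e-06). Cox8a, the highest member of the complex, rose by 0.31. Cox4i1 and Cox5a, early-assembling subunits, differed by 0.05 each, and Cox5b by −0.08, none past the threshold.

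The tissue forms of complex IV and its relatives were nearly all low. Cox7a1, the heart and muscle form of subunit 7a, was the exception, at 20.8, 21.8 and 25.0 RPKM in C18_3NC and 27.4, 28.3 and 30.2 in C18_5251KD, and rose by 0.34 (adjusted p = 0.0062). Cox6a2, the muscle form of subunit 6a, had at most 2.22 RPKM in any library and did not pass in knockdown (0.06, adjusted p = 0.84). Cox6b2, the testis form of subunit 6b, had at most 1.25 RPKM, in C18_5251KD replicate 2. Ndufa4l2, which rises in hypoxia, had at most 1.22 RPKM, and Cox4i2, the lung form of subunit 4, at most 0.24. Cox7b2 reached 0.33 RPKM and Ndufa11b 0.05. Cox8b and Cox8c were not analysed here.

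In complex V, the 4 members of the peripheral stalk, which holds the catalytic head in place, rose in C18_5251KD, by 0.15 (Atp5f1) to 0.35 (Atp5h). The others were Atp5j and Atp5o. Corrected for gene length and GC content, Atp5f1 differed by 0.06 and did not pass (adjusted p = 0.23). Atp5h had 688, 695 and 667 RPKM in C18_3NC and 858, 866 and 883 in C18_5251KD, with no overlap. Of the 5 members of the catalytic head, Atp5a1, Atp5c1 and Atp5e rose, while Atp5b (0.01) and Atp5d (−0.10) did not pass. The call of Atp5a1 was lost without C18_3NC replicate 2 (adjusted p = 0.085) and without C18_5251KD replicate 2 (adjusted p = 0.059), and also with the length and GC correction, median-ratio scaling or quantile normalization (adjusted p = 0.059, 0.11 and 0.40). Atp5mpl, a small membrane subunit, had the largest difference of any tested member on this scale, 0.56 ± 0.08 (adjusted p = 2.1e-05). It had 212, 235 and 215 RPKM in C18_3NC and 294, 319 and 364 in C18_5251KD. Its lowest knockdown value was above its highest control value. Atp5s, a factor associated with the synthase, was low at 6.42 to 7.38 RPKM in C18_3NC and 9.21 to 10.9 in C18_5251KD. It rose by 0.51 (adjusted p = 0.00015). Usmg5, the complex V subunit outside the naming rule, rose by 0.30 (adjusted p = 0.00029).

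The rotor of complex V was where members moved apart. Atp5g1, Atp5g2 and Atp5g3 are separate genes for subunit c, and their precursors differ in the import sequence that is removed to give the same mature protein. Atp5g1 had 153, 147 and 159 RPKM in C18_3NC and 115, 117 and 108 in C18_5251KD. All knockdown values were lower, and Atp5g1 fell by 0.43 on the log2 scale (SE 0.06, adjusted p = 2.0e-05). Atp5g2 had 550, 539 and 578 RPKM in C18_3NC and 684, 709 and 697 in C18_5251KD, all higher, and rose by 0.33 ± 0.07 (adjusted p = 0.00097). Atp5g3 had 539, 534 and 527 RPKM in C18_3NC and 540, 555 and 542 in C18_5251KD. Its knockdown values lay just above the controls, with a difference of 0.03 ± 0.05 (adjusted p = 0.57). Under the alternatives that kept C18_3NC as the control the difference stayed between −0.47 and −0.40 for Atp5g1 and between 0.27 and 0.36 for Atp5g2. With C18_5NC as the control it was −0.43 for Atp5g1 and 0.19 for Atp5g2 (adjusted p = 0.023).

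**Figure D2:**
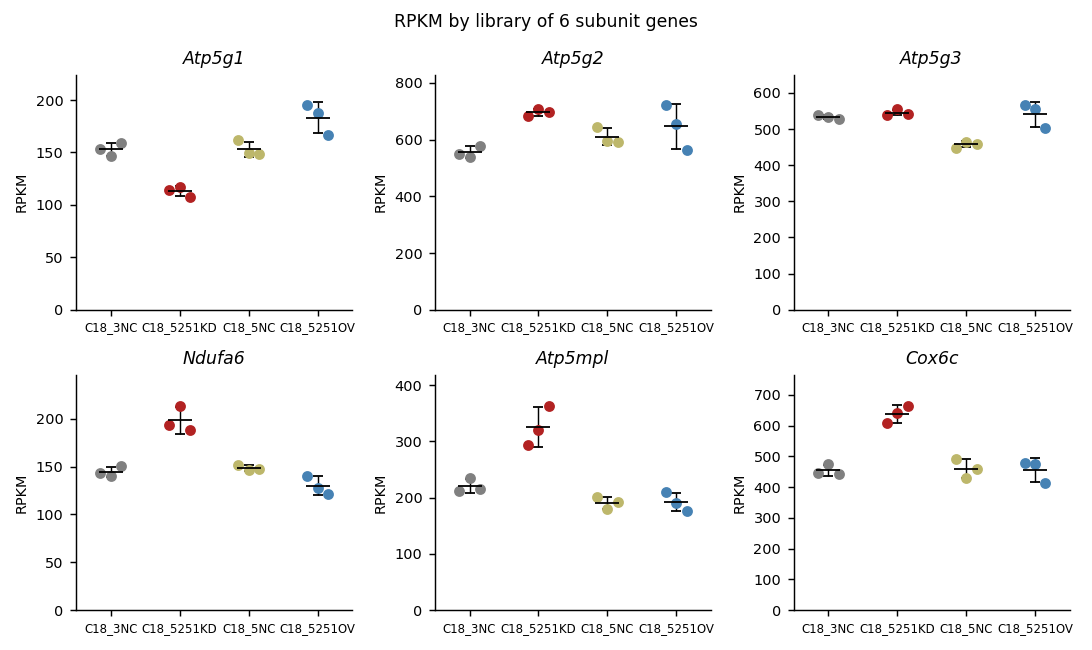
RPKM (vertical axis, from 0) of 6 member genes in each of the 12 libraries (points), with the group mean and SD over 3 libraries. Atp5g1 is lowest in C18_5251KD and highest in C18_5251OV, Ndufa6 shows the opposite order, and Atp5mpl and Cox6c are raised in C18_5251KD.

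The promoters of the 3 subunit c genes and of Ndufa6 are shown because these genes had opposite or unequal changes. Each run is the 250 bases before the RefSeq start (GRCm38.p6, minus strand), 5′ to 3′ toward the gene, and capitals mark a match to a motif searched. The places are chr11:96075632-96075881 for Atp5g1, chr15:102671048-102671297 for Atp5g2, chr2:73911327-73911576 for Atp5g3 and chr15:82354292-82354541 for Ndufa6.
Atp5g1: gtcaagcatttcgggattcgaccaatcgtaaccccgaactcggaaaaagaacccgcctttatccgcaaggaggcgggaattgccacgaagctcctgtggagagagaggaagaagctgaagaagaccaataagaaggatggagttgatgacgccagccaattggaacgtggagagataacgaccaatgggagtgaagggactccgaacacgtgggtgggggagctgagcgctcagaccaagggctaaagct
Atp5g2: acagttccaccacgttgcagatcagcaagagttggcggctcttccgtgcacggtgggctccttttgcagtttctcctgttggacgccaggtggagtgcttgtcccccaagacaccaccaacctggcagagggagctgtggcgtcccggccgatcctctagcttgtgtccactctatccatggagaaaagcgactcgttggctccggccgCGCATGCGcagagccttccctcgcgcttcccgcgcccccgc
Atp5g3: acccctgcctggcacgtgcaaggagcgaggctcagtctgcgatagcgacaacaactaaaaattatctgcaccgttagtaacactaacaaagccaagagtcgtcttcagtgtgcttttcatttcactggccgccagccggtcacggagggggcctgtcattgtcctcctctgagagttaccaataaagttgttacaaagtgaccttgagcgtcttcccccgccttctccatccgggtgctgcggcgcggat
Ndufa6: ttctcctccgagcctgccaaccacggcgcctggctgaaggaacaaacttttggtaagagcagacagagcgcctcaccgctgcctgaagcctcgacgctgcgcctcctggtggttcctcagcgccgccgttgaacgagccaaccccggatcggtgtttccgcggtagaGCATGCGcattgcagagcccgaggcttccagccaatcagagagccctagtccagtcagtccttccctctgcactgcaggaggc

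The motifs were core letters of 3 factors known for promoters of this gene group: GCATGCG for NRF1, CCGGAAG for ETS factors such as GABP, and AAGATGG for YY1. They were searched on both strands of 300 bases, 250 before to 50 after the start, in 1 window per gene. Atp5g2 holds the NRF1 letters on both strands, at bases 210 to 217 of its window, 1 base apart. Ndufa6 holds them at bases 168 to 174. Atp5g1 and Atp5g3 hold none of the 3 motifs. A window was found for 69 of the 86 members, and the NRF1 letters stood in 14.5% of them, against 3.65% of all 27025 windows and 6.98% of the windows of tested genes. The ETS letters stood in 21.7% of member windows, 9.14% of all and 19.7% of tested genes. The YY1 letters stood in 14.5%, 6.46% and 7.53%. Among the 36 windows of members that rose in C18_5251KD the shares were 13.9%, 22.2% and 13.9%, and among the 30 of other tested members 16.7%, 23.3% and 16.7%. The motif letters were shortened from 8 to 7 after the longer forms were seen to match few windows, and the genes shown were chosen after their values were seen. A match is a description of the letters and not of binding.

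With C18_5NC in place of C18_3NC as the control, 54 members were higher and 11 lower in C18_5251KD, while 34.0% of all genes were higher and 31.4% lower. Both comparisons use the same C18_5251KD libraries. Against C18_5NC the differences of Uqcrh (0.99), Ndufv3 (0.81), Cox7a2 (0.77) and Sdhd (0.54) were larger than against C18_3NC. Those of Uqcrc1 (0.01) and Atp5g2 (0.19) were smaller. Under the study's own threshold, an adjusted p of at most 0.001 with at least 1 log2 unit, limma called 0 members in knockdown, against 1.57% of all genes. At an unadjusted p under 0.05, 47 members were higher and 4 lower, against 34.7% and 25.7% of all genes.

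The members have short transcripts. The median gene length was 607 bases over members and 1398 over all tested genes, while the GC content was alike (51.0% and 50.7%). Among genes under 700 bases, the median knockdown difference was 0.06 over the other genes and 0.24 over 49 members. With gene length and GC content corrected for, 43 members rose and 9 fell in C18_5251KD, where 30.6% of all genes rose and 31.0% fell. Besides Atp5g1, the falls were Ndufa8, Ndufa10, Ndufs1, Ndufv1, Uqcr11, Uqcrq, Cox5b and Atp5d, from −0.17 (Uqcrq) to −0.10 (Atp5d), none of which passed without the correction. The members' median was then 0.15. Atp5g1 fell in that fit as well, by 0.47 on the log2 scale.

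Overexpression gave smaller differences that leaned on which C18_5251OV libraries were used. The summed RPKM of the members was 16770, 16350 and 16710 in C18_5NC and 19280, 18420 and 16510 in C18_5251OV. Replicates 1 and 2 of C18_5251OV lay above all C18_5NC libraries, and replicate 3 lay among them. Of the 80 tested members, 17 (21.2%) rose and 1 (1.25%) fell, against 8.07% and 13.9% of all genes. The median difference was 0.09 over the members and −0.03 over all genes. Without C18_5251OV replicate 1 the members' median was 0.05. Without C18_5251OV replicate 3, 45 members rose, where 14.6% of all genes did, and the median was 0.15. With all libraries, 67 members of replicate 1, 59 of replicate 2 and 19 of replicate 3 lay above every C18_5NC value. The same was not counted over all genes, so these counts describe the libraries and are not a result about the members. Leaving out replicate 1 or 2 of C18_5251OV instead gave 8 rises each (10% of the members, against 3.45% and 3.42% of all genes), and leaving out C18_5NC replicate 1, 2 or 3 gave 11, 8 and 9 (against 5.49%, 3.80% and 4.29% of all genes). The total RPKM of the library was 580920, 566543 and 537526 in C18_5251OV, replicate 3 being close to the 533099 to 539746 of C18_5NC, and the part of this in the result was not tested. With quantile normalization 10 members rose and 4 fell, with a median of 0.019, while 8.21% of all genes rose and 8.31% fell. With C18_3NC in place of C18_5NC as the control, 17 members (21.2%) were higher and 13 (16.2%) lower, against 30.2% and 31.1% of all genes, so that the share of members higher was below that of all genes, and the median was 0.02. With median-ratio scaling 21 rose and none fell, while 1287 of all genes rose and 1178 fell.

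By complex, 5 of 37 tested members of complex I (13.5%) rose and 1 fell, against 8.07% and 13.9% of all genes. In complex IV 6 of 14 (42.9%) rose, in complex V 5 of 17 (29.4%), in complex III 1 of 8 (12.5%) and in complex II none of 4. The shares of complexes I and III were not far above that of all genes. Without C18_5251OV replicate 3 the rises were 15, 9, 12, 6 and 3 in complexes I, IV, V, III and II, with no member falling. In that fit 14.6% of all genes rose and 21.9% fell. The overexpression medians of complexes I to V were 0.07, 0.10, 0.09, 0.14 and 0.12 with all libraries and 0.13, 0.15, 0.15, 0.20 and 0.17 without it. Without C18_5251OV replicate 1 they were 0.04, 0.06, 0.03, 0.09 and 0.08, and with quantile normalization 0.02, 0.05, 0.03, 0.01 and 0.02. Cox6b1, a subunit on the outer side of complex IV, had 296, 313 and 340 RPKM in C18_5NC and 443, 405 and 358 in C18_5251OV. Replicate 3 was the lowest of the C18_5251OV values and still above C18_5NC, and Cox6b1 rose by 0.34 ± 0.07 (adjusted p = 0.0049), or by 0.42 without replicate 3. Uqcr11 had 155, 149 and 151 RPKM in C18_5NC and 208, 192 and 164 in C18_5251OV. It rose by 0.30 ± 0.07 (adjusted p = 0.0075), with the same order of replicates, and by 0.40 without replicate 3.

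Ndufa8, which carries disulfide bonds on the outer face of complex I, rose by 0.26 (adjusted p = 0.0094) from 65.4 to 68.9 RPKM in C18_5NC to 74.1 to 87.5 in C18_5251OV, and by 0.31 without C18_5251OV replicate 3. The quinone site subunit Ndufa9 rose by 0.25 (adjusted p = 0.0049), and by 0.29 without that library. Cox7c, a small subunit of complex IV, rose by 0.24, but not without C18_5251OV replicates 1 or 2 or C18_5NC replicates 1 or 3 (adjusted p from 0.066 to 0.093), and by 0.34 without C18_5251OV replicate 3. Atp5k, a membrane subunit of complex V, rose by 0.25, but not without C18_5251OV replicates 1 or 2 or C18_5NC replicates 1 or 2 (adjusted p from 0.060 to 0.11), and by 0.28 without C18_5251OV replicate 3. In complex V, Atp5g1 had 162, 149 and 149 RPKM in C18_5NC and 195, 188 and 166 in C18_5251OV. The groups did not overlap, and it rose by 0.25 ± 0.06 (adjusted p = 0.0097), or 0.32 without C18_5251OV replicate 3. Atp5g3 rose by 0.24, or 0.29 without that library. Atp5g2 did not pass with all libraries (0.08, adjusted p = 0.43) and rose by 0.17 without it (adjusted p = 0.015). Ndufa6 was the member that fell, with 152, 147 and 147 RPKM in C18_5NC and 141, 128 and 121 in C18_5251OV. Its difference was −0.19 ± 0.06 (adjusted p = 0.029), and it did not pass without C18_5251OV replicate 2 (adjusted p = 0.10) or replicate 3 (adjusted p = 0.057). It also did not pass without any single C18_5NC library, with adjusted p from 0.070 to 0.085. Ndufb4c had 27.6, 22.9 and 24.3 RPKM in C18_5NC and 28.9, 40.3 and 33.1 in C18_5251OV and rose by 0.43 (adjusted p = 0.022). Without C18_5251OV replicate 3 the rise was 0.44. Without C18_5251OV replicate 2 its adjusted p was 0.11. Leaving out C18_5NC replicate 2 or 3 gave 0.089 and 0.067. With C18_3NC as the control of C18_5251OV, Cox6b1 (−0.15), Ndufa8 (−0.12), Ndufa9 (−0.06), Uqcr11 (0.16), Cox7c (0.05), Atp5k (0.11), Atp5g3 (0.02) and Ndufb4c (0.21) did not pass, while Atp5g1 rose by 0.26. At the study's threshold limma called 0 members and 0% of all genes, while at an unadjusted p under 0.05 there were 27 members higher and 2 lower, against 14.0% and 23.1% of all genes.

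**Figure D3:**
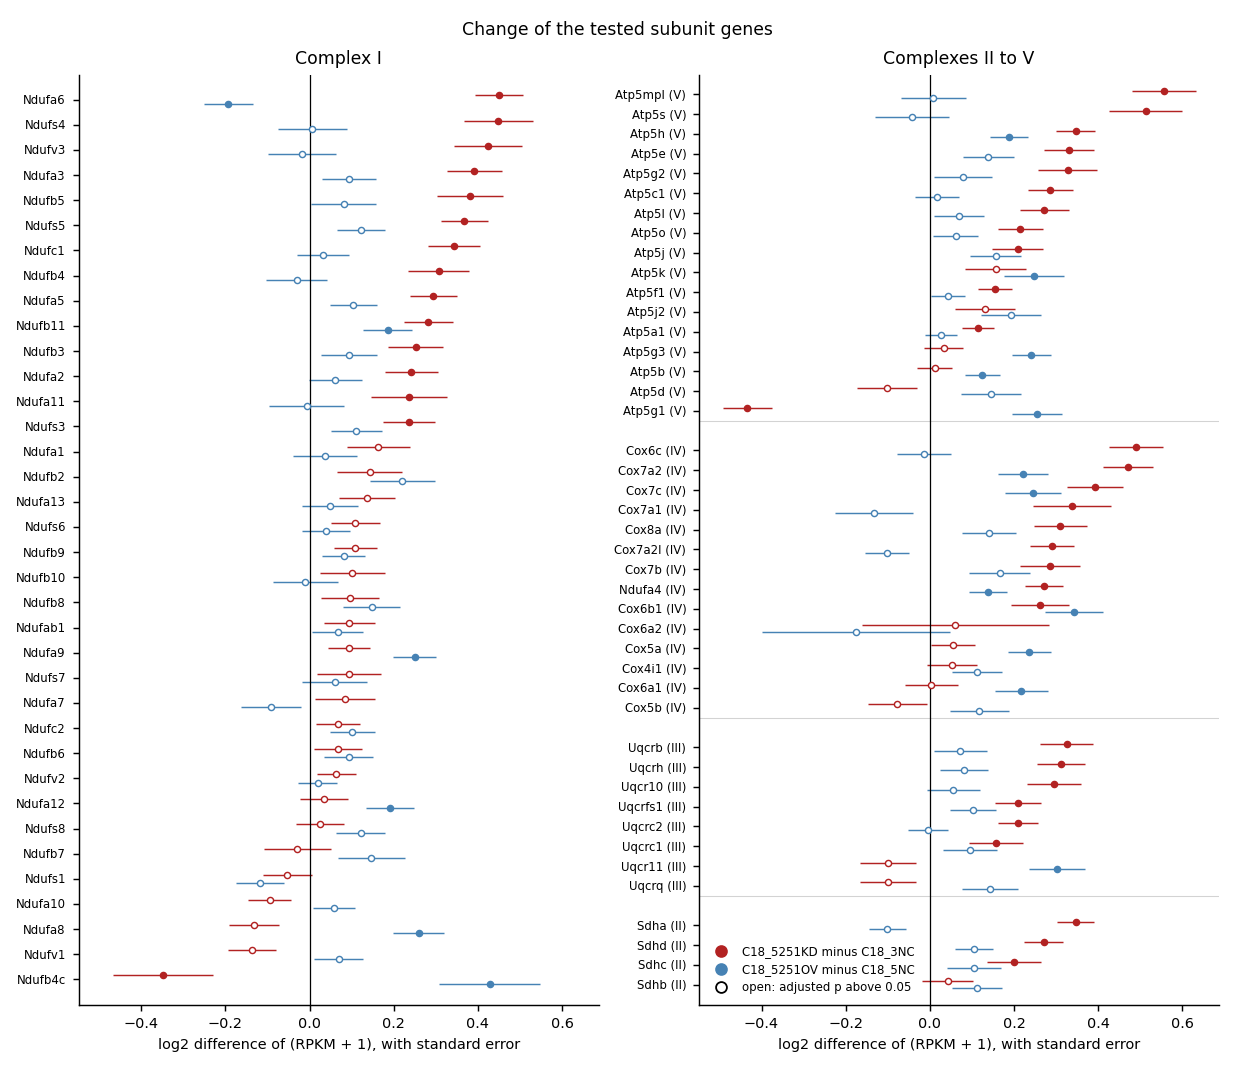
Log2 difference of (RPKM + 1) with its standard error (horizontal axis) for 79 of the 80 tested member genes, for knockdown (red) and overexpression (blue), with filled points at an adjusted p of at most 0.05. In knockdown 43 filled points lie to the right of 0 and 2 to the left (Ndufb4c and Atp5g1), and in overexpression 17 to the right and 1 to the left (Ndufa6).

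Knockdown and overexpression share no library, so their calls can be set side by side. Both come from 1 fit with a shared spread, so the calls are not fully independent. Of the 44 members that rose in knockdown, 6 also rose in overexpression, which is 13.6% of the first list and 35.3% of the second. By comparison, 21.2% of all tested members rose in overexpression and 55% in knockdown. Over all genes the shared rises were 4.52% of the knockdown list and 17.9% of the overexpression list. Without C18_5251OV replicate 3 the members shared 27 rises, which is 56.2% of 48 and 60% of 45. In that fit 56.2% of all tested members rose in overexpression and 60% in knockdown, so the shared rises were no more frequent than the rises among all members. With all libraries they were Ndufb11, Cox6b1, Cox7a2, Cox7c, Ndufa4 and Atp5h. Of these, Cox6b1 kept its overexpression call without any single library, and the other 5 lost it without C18_5251OV replicate 1, with adjusted p from 0.0501 for Atp5h to 0.17 for Ndufa4. Each of these 5 also lost it without at least 1 other library: Atp5h without C18_5NC replicate 2, Cox7a2 without C18_5251OV replicate 2 or C18_5NC replicate 2 or 3, Cox7c without C18_5251OV replicate 2 or C18_5NC replicate 1 or 3, and Ndufb11 and Ndufa4 without C18_5251OV replicate 2 or any C18_5NC library, where adjusted p over all these settings ran from 0.0509 to 0.13. With C18_3NC as the control of C18_5251OV, Atp5h was lower by a difference of −0.13 (adjusted p = 0.023), and Cox7a2 (−0.07), Ndufa4 (0.0032) and Ndufb11 (0.06) did not pass. With quantile normalization Atp5h (0.05, adjusted p = 0.28), Ndufa4 (0.0036, adjusted p = 0.94) and Ndufb11 (0.12, adjusted p = 0.090) did not pass, and in a fit of only the 6 libraries compared Atp5h, Cox7c, Ndufa4 and Ndufb11 did not (adjusted p from 0.053 to 0.12). The difference of the effects was tested directly: for 23 members the knockdown effect was higher and for 8 lower, while 31.2% of all genes were higher and 20.7% lower. The largest positive difference was that of Ndufa6, 0.64 ± 0.08 (adjusted p = 1.5e-05). It was −0.69 ± 0.08 for Atp5g1 (adjusted p = 1.0e-05) and −0.78 ± 0.17 for Ndufb4c (adjusted p = 0.0014). These 3 members passed in both comparisons with opposite signs. With median-ratio scaling 13 members were higher and 15 lower in this test, against 25.3% and 25.2% of all genes. With quantile normalization it was 35 and 6, against 26.4% and 24.5%, so the balance of its directions depended on the scaling, over members and over all genes. Without C18_5251OV replicate 3, 17 members were lower, and without C18_3NC replicate 3, C18_5251KD replicate 1, C18_5251OV replicate 1 or 2, or C18_5NC replicate 2 or 3 there were 5.

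**Figure D4:**
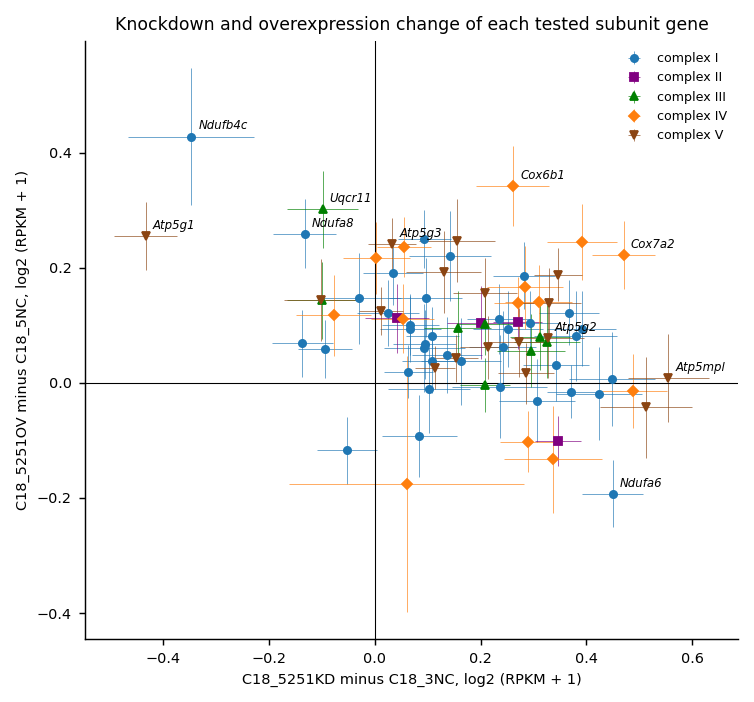
Knockdown difference (horizontal axis) against overexpression difference (vertical axis) in log2 (RPKM + 1) for the 80 tested member genes, with standard errors and a symbol per complex. Atp5g1 and Ndufb4c lie at the upper left and Ndufa6 at the lower right, away from the other members.

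The control groups differed as well. The summed RPKM of the members dropped by 4.38% from C18_3NC to C18_5NC, and every C18_5NC library lay below every C18_3NC library. The total RPKM was lower as well, 533099 to 539746 against 552310 to 554527, and the members' share of it was 3.07% to 3.11% in C18_5NC and 3.11% to 3.16% in C18_3NC. Of the 80 members, 8 (10%) were higher and 24 (30%) lower in C18_5NC, against 31.0% and 25.6% of all genes. Without C18_3NC replicate 2, C18_5NC replicate 1 or C18_5NC replicate 3, 5 were higher, and without C18_5251OV replicate 3, which shares the fit, 14. The median was −0.07 over the members and 0.02 over all genes. Uqcrh had 237, 240 and 237 RPKM in C18_3NC and 151, 148 and 146 in C18_5NC, far apart, and fell by 0.68 on the log2 scale (SE 0.06, adjusted p = 1.2e-07). Cox6b1 had 447, 446 and 445 RPKM in C18_3NC against 296, 313 and 340 in C18_5NC, and its difference was −0.50 (adjusted p = 2.3e-05).

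Ndufv3 (−0.38), Ndufa8 (−0.38), Atp5h (−0.32), Cox7a1 (−0.33), Atp5l (−0.29) and Sdhd (−0.27) were also lower in C18_5NC. In complex I the matrix arm held 4 members that were higher, with the core subunits Ndufs7, Ndufs8 and Ndufv1 among them, and 4 that were lower, 25% in each direction. Ndufv1 lost its call without any single library of the comparison (adjusted p from 0.053 to 0.11). The membrane arm held 6 of 20 lower (30%) and none higher. The shares lower in both arms were near the 25.6% of all genes. Ndufs8 was higher by 0.38, and Cox6a1, the widely expressed form of subunit 6a, by 0.30. Cox6a2 differed by 0.87 (adjusted p = 0.0038), but from 0.13 to 0.88 RPKM in C18_3NC to 0.93 to 2.22 in C18_5NC. Atp5b (0.12) and Atp5d (0.19) passed with all libraries and did not without any single C18_5NC library, Atp5b also without C18_3NC replicate 1 (adjusted p = 0.095) or 2 (adjusted p = 0.078) and Atp5d without C18_3NC replicate 2 (adjusted p = 0.18). At the study's threshold limma called 0 members, against 2.61% of all genes, and at an unadjusted p under 0.05 there were 11 members higher and 27 lower, against 33.4% and 28.0% of all genes.

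Other mitochondrial gene lists are set against the same 31.9% of all genes that rose and 23.5% that fell in knockdown. The tricarboxylic acid cycle and pyruvate dehydrogenase list had 10 of 18 tested genes (55.6%) higher and 1 (5.56%) lower in C18_5251KD, with a median of 0.15, shares close to those of the members. Idh2, the mitochondrial NADP-dependent isocitrate dehydrogenase, rose by 0.50 and Suclg1, a subunit of succinyl-CoA ligase, fell by 0.28. The other 5 lists had medians from −0.11 to 0.0015. With the length and GC correction the median was 0.09 for the tricarboxylic acid cycle list, −0.06 for assembly factors, −0.12 for the list for mitochondrial DNA expression and −0.12 for mitochondrial ribosomal proteins, of which 10 were then higher and 38 lower. It was −0.03 for electron carriers and −0.16 for carriers and import genes. Mitochondrial ribosomal proteins had 13 of 78 (16.7%) higher and 28 (35.9%) lower with a median of −0.07, from Mrps33 (0.51) to Mrps18b (−0.69). Assembly factors had 14 of 49 (28.6%) higher and 10 (20.4%) lower, near the shares of all genes. Cox20, which handles a complex IV subunit, rose by 0.50 and Sco2, a copper chaperone of complex IV, fell by 0.90. Genes for expression of mitochondrial DNA and biogenesis had 1 of 19 (5.26%) higher, Gabpa (0.33), the DNA-binding subunit of GABP, and 8 (42.1%) lower, with Pprc1, a coactivator of the PGC-1 family, at −0.72.

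Electron carriers had 7 of 20 (35%) higher and 5 (25%) lower in knockdown, again near the shares of all genes, from Coq8a (0.99, at 0.94 RPKM in C18_3NC and 2.84 in C18_5251KD) to Pdss1 (−0.67), both genes of coenzyme Q synthesis. Carriers and import genes had 4 of 17 (23.5%) higher and 7 (41.2%) lower, from Vdac1 (0.29), the outer membrane channel, to Tomm40 (−1.02), the import pore. In C18_5251OV, 10 of 78 mitochondrial ribosomal proteins (12.8%) were higher and none lower, with a median of 0.10, against 8.07% of all genes higher and 13.9% lower. Without C18_5251OV replicate 3 it was 34 higher and none lower, where 14.6% of all genes were higher. Carriers and import genes had 8 of 17 (47.1%) higher and 2 (11.8%) lower in C18_5251OV, and 9 and 3 without replicate 3. Examples chosen after their values were seen are Slc25a5, an ADP/ATP carrier (0.32), and Opa1, which fuses inner membranes (−0.32). Of the other lists, assembly factors had 5 of 49 higher and 1 lower, electron carriers 2 of 20 higher and none lower, the tricarboxylic acid cycle list 2 of 18 higher and 1 lower, and the list for mitochondrial DNA expression 2 of 19 higher and 2 lower. Without C18_5251OV replicate 3 assembly factors had 7 higher and 3 lower, and electron carriers 6 and 1. The tricarboxylic acid cycle list then had 4 and 1, and the list for mitochondrial DNA expression 2 and 3.

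**Figure D5:**
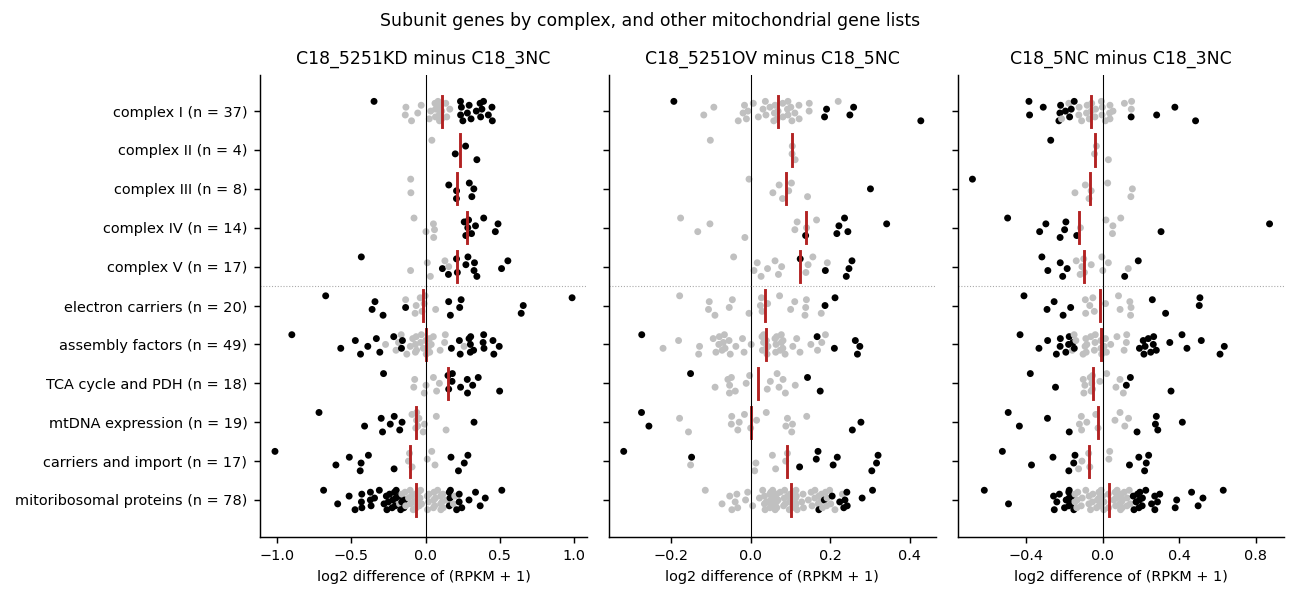
Log2 difference of (RPKM + 1) (horizontal axis, own scale in each panel) of each tested gene, for the 5 complexes and 6 other mitochondrial gene lists, in the 3 comparisons. Dark points passed an adjusted p of 0.05 and red bars are medians. In knockdown the medians of the complexes run from 0.11 to 0.28, while the mitochondrial ribosomal proteins have −0.07.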

How the data were processed

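RNA-seq of 12 C18-4 libraries in 4 groups of 3 was used. The deposited table holds RPKM per gene and library. By the study's methods, oligo(dT)-selected mRNA was sequenced on an Illumina HiSeq, reads were aligned to reference genes with SOAPaligner, and read numbers were turned into RPKM by the authors. The labels name total RNA. The genome build, gene set and handling of reads that fit several genes are not given in the sources used here. Total reads are not in the table, so no counting interval is given. Several members have close copies, which makes their split of reads uncertain.

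Groups came from the labels. Genes that reached 1 RPKM in 3 or more libraries entered the test, on log2(RPKM + 1) with limma 3.58.1 (eBayes with an intensity trend, R 4.3.3), all 12 libraries in 1 fit, with Benjamini-Hochberg adjustment over all 11435 genes. With 3 against 3 libraries an exact permutation test cannot go below p = 0.1, so none was used. The fit was tested on simulated data. Alternatives were another pseudocount, no filter, quantile and median-ratio scaling, only the 6 libraries compared, the study's threshold, a replicate block, each library left out, a length and GC correction (GENCODE vM21, for 79 of 80 members), no intensity trend, the members without those that are not subunits, and the other control group. The use of C18_3NC as the control for C18_5251OV was added after the data were seen. Promoter windows are from RefSeq (GRCm38.p6), matched by gene ID. Figures were drawn with matplotlib 3.10.9.

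Members and lists were chosen with earlier results of these data known. Named members are, in each complex and comparison, the 2 largest rises and falls past the threshold, the highest member of each complex, all tissue forms and the 4 Sdh genes. In each other list it is the largest rise and fall in knockdown and between controls. Values of further members are given as examples chosen after they were seen. One member is counted in the totals but its own values are not reported here.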

Additional observations from a re-analysis of the deposited data

Results flagged for a closer look

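3 members passed in both knockdown and overexpression with opposite signs. Their difference between the effects also passed, but this nearly follows from the selection and adds no separate support. For Ndufa6 the knockdown effect minus the overexpression effect was 0.64 on the log2 scale, for Ndufb4c it was −0.78 and for Atp5g1 −0.69. Ndufa6 and Ndufb4c lost their overexpression call when some single libraries were left out, Ndufb4c also its knockdown call without C18_3NC replicate 1 (adjusted p = 0.13) or C18_5251KD replicate 1 (adjusted p = 0.085), while Atp5g1 kept both calls without any single library. Ndufb4c is a close copy of Ndufb4, and a split of reads between them was not tested.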

How the results depend on the processing

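The knockdown count of rises stayed within 1.5 times its value in every alternative but the study's threshold, with 41 to 43 rises when 1 library of the comparison was left out and 43 to 48 when 1 library of the other groups was, which changes the shared spread. Of all genes, 28.4% to 31.3% rose in the first case and 31.2% to 34.3% in the second. In single members named by the rule, 444 of the values under an alternative kept direction and threshold, 48 lost the threshold (4 in knockdown, 29 in overexpression, 15 between controls) and 2 reversed. The reversals came with C18_3NC as the control of C18_5251OV, at −0.12 for Ndufa8 and −0.15 for Cox6b1.

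The study's threshold gave 0 members higher and 0 lower in all 4 tests. With C18_5NC as the control of C18_5251KD, 11 members were lower and the medians were 0.26 over all members and 0.23, 0.31, 0.27 and 0.27 in complexes I, II, III and V. With C18_3NC as the control of C18_5251OV, 17 members were higher and 13 lower, against 30.2% and 31.1% of all genes, and the medians were 0.02 over all members, −0.036 in complex II and 0.0031 in complex IV. The length and GC correction gave 9 lower in knockdown, 14 lower in the difference of effects, knockdown medians of 0.15 overall and 0.076, 0.14, 0.16 and 0.14 in complexes I, III, IV and V, and −0.11 for complex V between controls. Median-ratio scaling gave 5 lower in knockdown, 0 lower in overexpression, 5 higher between controls, 13 higher and 15 lower in the difference, medians of 0.16 overall and 0.069 in complex I in knockdown, and of −0.097 overall and −0.13 in complex V between controls. Quantile normalization gave 4 lower in knockdown, 10 higher and 4 lower in overexpression, 13 higher between controls and 35 higher in the difference, with medians of 0.18 overall and 0.13 in complex V in knockdown and 0.010 in complex IV in overexpression. Without the filter, 1 was lower in knockdown, 9 were higher and 0 lower in overexpression and 5 lower in the difference, and the medians between controls were −0.060 overall and −0.050 in complex IV. Of all genes without the filter, 15.7% were lower in knockdown, 4.06% higher and 6.81% lower in overexpression and 13.6% lower in the difference. A fit of only the 6 libraries compared gave 4 lower in knockdown, 10 higher and 0 lower in overexpression and 15 higher between controls. All genes in that fit had 23.9% lower in knockdown, 5.48% higher and 7.55% lower in overexpression and 35.5% higher between controls. Without the intensity trend it was 0 lower in overexpression, 5 higher between controls and 5 lower in the difference. For all genes these shares were 13.8%, 30.7% and 20.3%. The shares of all genes lower in knockdown were 31.0% with the length and GC correction, 27.3% with median-ratio scaling and 26.6% with quantile normalization. Between controls, 28.5% of all genes were higher with median-ratio scaling and 28.0% with quantile normalization. The causes were not tested.

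Leaving out 1 library of the comparison gave 1 to 3 lower in knockdown, 8 to 45 higher and 0 to 1 lower in overexpression, 5 to 8 higher between controls, and 5 to 17 lower in the difference. Of all genes, 20.5% to 22.4% were then lower in knockdown, and 3.42% to 14.6% higher and 5.10% to 21.9% lower in overexpression. Between controls 27.8% to 28.2% were higher, and 18.6% to 22.9% were lower in the difference. Leaving out 1 library of the other groups gave 2 to 4 lower in knockdown, 15 to 20 higher and 1 lower in overexpression, and 7 to 14 higher between controls. The shares of all genes were then 22.7% to 25.4% lower in knockdown, 6.73% to 10.2% higher and 11.9% to 16.5% lower in overexpression. Between controls 30.3% to 33.1% were higher. The medians ran from 0.17 to 0.22 overall and 0.11 to 0.15 in complex I in knockdown, and from −0.096 to −0.059 overall and −0.11 to −0.091 in complex V between controls. In overexpression the median over all members ran from 0.054 to 0.15 when 1 library of the comparison was left out. Same-numbered libraries of different groups had correlations of deviations from −0.18 to 0.35, so the numbers were not taken as pairs. With the replicate block, 44 members were higher and 3 lower in knockdown, 15 and 1 in overexpression, 9 and 24 between controls and 22 and 9 in the difference. RPKM values carry no read totals, and low members such as Cox6a2 rest on few reads.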

Other observations

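In the comparison of C18_5NC with C18_3NC, 31.0% of all genes were higher and 25.6% lower, and the larger lists of other mitochondrial genes were near these shares. Of the 78 mitochondrial ribosomal proteins, 21 (26.9%) were higher and 15 (19.2%) lower, from Mrps26 (0.63) to Mrpl14 (−0.62). Among assembly factors, 15 of 49 (30.6%) were higher and 11 (22.4%) lower, from Sco2 (0.64) to Ndufaf1 (−0.43), an assembly factor of complex I. Of the electron carrier genes, 4 of 20 (20%) were higher and 5 (25%) lower, from Coq2 (0.51), of coenzyme Q synthesis, to Etfdh (−0.41), which passes electrons from fatty acid oxidation to coenzyme Q. In the tricarboxylic acid cycle list 3 of 18 (16.7%) were higher and 2 (11.1%) lower, with Idh2 at 0.36 and Idh3a at −0.38. Among carriers and import genes Vdac2 was at 0.24 and Phb, prohibitin, at −0.52. In the list for mitochondrial DNA expression Gabpb2 was at 0.42 and Polg2, a subunit of the mitochondrial DNA polymerase, at −0.49. Cycs, the gene of cytochrome c, fell in knockdown by 0.13 (adjusted p = 0.040) and rose in overexpression by 0.19 (adjusted p = 0.022). It was also lower in C18_5NC than in C18_3NC, by 0.17 (adjusted p = 0.013). Its means were 81.6 RPKM in C18_5251KD and 79.7 in C18_5NC, and 90.8 in C18_5251OV and 89.5 in C18_3NC.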
